A study of Mus musculus with 6 samples.

Results

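The smooth muscle actin and myosin apparatus was compared between mouse aortas of 2 genotypes, a knockout of the long noncoding RNA Mymsl (Mymsl KO) and its wild-type control (Mymsl WT). It was taken as 10 genes chosen by symbol: the actins Acta2 and Actg2, the myosin heavy chain Myh11, the regulatory light chain Myl9, the light chain kinase Mylk, and the actin-binding proteins Tagln, Cnn1, Smtn, Lmod1 and Cald1. The table held a row for each of the 10, out of 53735 rows, and all 10 passed the filter on low counts that left 14145 rows. Each genotype had 3 libraries, made with a stranded poly(A) kit from RNA of purified smooth muscle cells of the medial layer. The labels name no treatment. The series text speaks of 3 pairs of KO and WT mice, without saying what a pair shares or whether each library is a single mouse. No source used here gives the strain, the age or the design of the knockout allele. The p-values therefore measure only the spread between these libraries. Total counts per library ranged from 20048216 to 25521123. Values per library are listed in the order of replicates 1, 2 and 3. The table has no row named Mymsl, so loss of the targeted RNA was not checked.

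Smooth muscle shortens when myosin filaments pull on actin filaments. Calcium bound to calmodulin activates the myosin light chain kinase, which phosphorylates the regulatory light chain and so switches on the motor of the heavy chain, while calponin and caldesmon sit on the actin filament and hold the motor back. In the aortic media these proteins carry vessel tone, and their genes are classical targets of serum response factor and its coactivator myocardin, which act through a DNA element called the CArG box.

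Sequence just upstream of the start sites is shown for the members on which the account below turns. Cald1 was the member whose levels separated the genotypes, and Acta2 and Myl9 were the members with a CArG-like element. RefSeq (GRCm38.p6) promoter windows were found for 7 of the 10 members, in 8 windows because Cald1 has 2 start sites; Actg2, Myh11 and Tagln had no window. The 250 bases before each start were searched on either strand for the CArG box, a 10-base palindromic element with an A/T-rich core, exactly or with 1 substitution in the core. Capitals mark the matches, and lower case letters the surrounding bases. For Acta2 the 30 bases around each match are given, because GENCODE M21 places them inside the first exon of that gene. For Myl9 and Cald1 the window is given up to the first exon base of that annotation.
Acta2 chr19:34255438-34255467 (minus strand): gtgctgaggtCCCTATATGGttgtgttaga
Acta2 chr19:34255388-34255417 (minus strand): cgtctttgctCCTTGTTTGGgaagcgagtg
Myl9 chr2:156775214-156775419 (plus strand): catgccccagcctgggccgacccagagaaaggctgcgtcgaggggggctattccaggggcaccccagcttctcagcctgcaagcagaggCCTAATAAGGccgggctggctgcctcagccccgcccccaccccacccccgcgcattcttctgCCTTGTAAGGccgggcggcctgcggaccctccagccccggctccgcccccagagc
Cald1 chr6:34598254-34598499 (plus strand): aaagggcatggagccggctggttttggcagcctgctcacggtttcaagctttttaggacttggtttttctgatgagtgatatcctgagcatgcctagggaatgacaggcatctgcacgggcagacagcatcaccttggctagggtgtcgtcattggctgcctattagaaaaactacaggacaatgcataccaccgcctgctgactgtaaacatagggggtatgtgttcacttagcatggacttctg
Cald1 chr6:34709194-34709441 (plus strand): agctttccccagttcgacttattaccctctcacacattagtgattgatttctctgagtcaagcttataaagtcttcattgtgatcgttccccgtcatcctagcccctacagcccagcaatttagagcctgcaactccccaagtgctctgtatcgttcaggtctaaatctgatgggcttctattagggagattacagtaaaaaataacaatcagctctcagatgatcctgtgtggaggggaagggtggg
The Myl9 window held 1 exact box, CCTAATAAGG, and 1 with a substitution. The Acta2 window held 2 boxes with a substitution each. No match to these letters was found in the windows of Lmod1, Cald1, Cnn1, Smtn and Mylk, which says nothing about sites elsewhere. Over all 32851 windows of the table, 1.47% held an exact box and 8.59% held a box when 1 substitution was allowed. These matches are descriptions of sequence and not measured binding sites.

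Expression of the apparatus was high in all 6 libraries. On a per-length scale (CPM per kilobase of union exon length, mean of 6 libraries), Acta2 ranked 5th of 12477 rows with an annotated length, Myl9 8th, Tagln 9th, Myh11 14th and Cnn1 33rd, and the lowest member, Mylk, ranked 169th. CPM is the count scaled to the size of the library after TMM normalization, which rescales library sizes. Together the 10 genes held 6.03%, 6.23% and 6.38% of all counts over the WT libraries and 4.83%, 6.53% and 5.33% over the KO libraries. The KO mean was 0.65 percentage points below the WT mean (6.21% ± 0.172 against 5.56% ± 0.876, SD, n = 3 each), a difference within the spread of the KO libraries (exact two-sided permutation p = 0.4, where 3 against 3 libraries allow no p below 0.1). KO replicate 2 lay above all WT libraries and KO replicates 1 and 3 lay below them. Fewer muscle cells and less of these RNAs per cell cannot be told apart in bulk libraries.

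Mitochondrially encoded genes took 5.66% to 9.02% of counts in WT and 10.003% to 18.9% in KO, and the 2 KO libraries with low member shares had the higher mitochondrial shares (18.9% and 13.0%). Of 13 mitochondrial genes listed, 7 passed the filter and 3 (mt-Nd4l, mt-Atp6 and mt-Atp8) had 0 counts in every library. These shares therefore rest on the rows that received counts. Outside mitochondrial genes the member share was 6.55%, 6.85% and 6.76% over the WT libraries and 5.95%, 7.26% and 6.13% over the KO libraries, so the difference shrank to 0.272 percentage points. The members summed to 49880 to 65147 CPM per library. Markers of other cell types were summed in the same way. The 16 heart muscle markers, led by Ryr2, summed to 99.7 to 129.5 CPM in WT and 122 to 194 CPM in KO. Of the 11 heart markers tested, 10 were above 0 (median log2 fold change 0.82), and Ryr2 was at −0.037. Libraries did not overlap for 3 of them, all higher in KO, and edgeR called 0. All tested heart markers but Myh7, Pln and Ryr2 peaked in KO replicate 1. That library held 13.4 CPM of Myh6, and WT libraries at most 1.63. For Myl7 it held 5.05 CPM, and WT libraries at most 0.56. The 12 skeletal muscle markers summed to at most 15.01 CPM in any library. The 12 endothelial markers ran from 500 to 632 CPM in WT and from 543 to 865 CPM in KO. No gene of these 3 marker lists was at 0 in all 6 libraries. The 8 pericyte markers, led by Rgs5, summed to 6249 to 6843 CPM in WT and to 2033, 3593 and 5186 CPM over the KO libraries, which did not overlap. Rgs5 alone measured 4597 ± 349 CPM in WT and 1831 ± 1586 CPM in KO (SD, n = 3 each). Bulk libraries do not tell whether the RNAs of this list came from pericytes or from the muscle cells. Adipocyte (155 to 319 CPM in WT, 190.4 to 335 in KO), macrophage (57.7 to 96.7 and 53.1 to 141) and Schwann cell markers (690 to 756 and 635 to 728) overlapped, as did erythroid markers (20.3 to 152 and 25.6 to 35.7). Their part in the values below was not tested.

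No member passed the main test between genotypes, and 9 of 10 had a log2 fold change (KO over WT) below 0. The median was −0.11 over the 10 members and 0.012 over all 14145 rows tested, of which 47.5% were below 0. edgeR's quasi-likelihood test called 0 members at an adjusted p under 0.05, and 1 row of 14145 (0.00707%). At an unadjusted p under 0.05 there was 1 member, Cald1, lower in KO, against 14.6% of all rows (7.76% lower in KO). DESeq2 called Cald1 alone among the members, against 1.85% of the 10374 rows that had an adjusted p there. Limma-voom called 0 members. KO and WT libraries did not overlap for 1 of 10 members, Cald1, which was lower in KO. Of all rows tested, 21.8% did not overlap and 11.3% did so lower in KO. With 10 members, this count does not set them apart from all rows. The median rested on single libraries: it was −0.18 without KO replicate 2 (10 members below 0), −0.054 without KO replicate 1 (7 below 0), −0.038 without KO replicate 3 and −0.071 without WT replicate 2 (8 below 0 in either case).

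**Figure D1:**
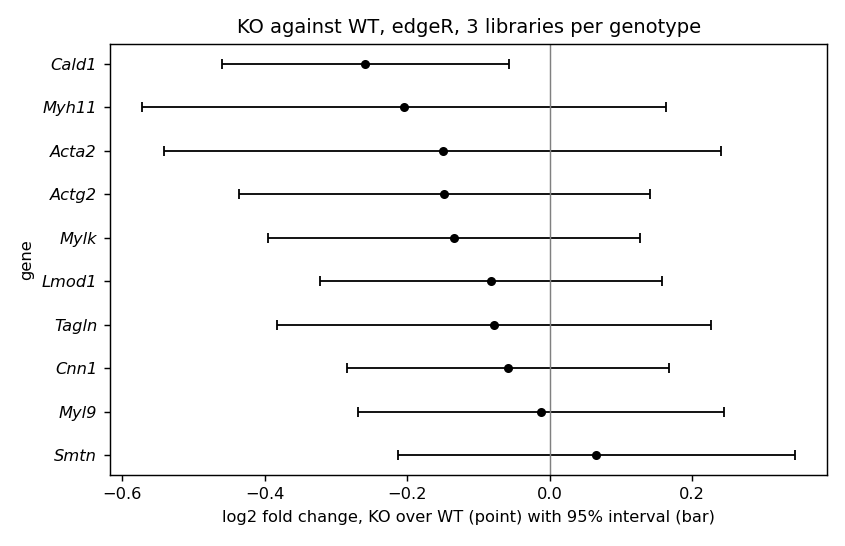
Log2 fold change of each of the 10 genes, KO over WT (horizontal axis), from edgeR over 3 libraries per genotype; bars are 95% intervals. The interval of Cald1 (−0.46 to −0.058) is the one that does not reach 0, and its adjusted p over all rows is 0.279.

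The smooth muscle actins differed widely in level, and for both the libraries of the genotypes overlapped. Acta2 (ENSMUSG00000035783.9, chr19:34241090-34255590, minus strand, GRCm38) encodes alpha smooth muscle actin, the main thin filament protein of vascular muscle. It measured 20923, 21549 and 22897 CPM over the WT libraries and 16837, 23829 and 18255 CPM over the KO libraries. KO replicate 2 was the highest of the 6 libraries and KO replicate 1 the lowest, so the groups overlapped. The means were 21790 ± 1009 CPM in WT and 19640 ± 3696 CPM in KO (SD, n = 3 each), with a log2 fold change of −0.15 ± 0.17 (SE, 95% interval −0.54 to 0.24, edgeR adjusted p = 0.697). Actg2 (chr6:83512905-83536265, minus strand) encodes gamma smooth muscle actin, best known from the gut and other visceral muscle. It measured 365, 401 and 322 CPM over the WT libraries and 360, 348 and 275 CPM over the KO libraries, and KO replicates 1 and 2 lay among the WT libraries. It had a log2 fold change of −0.15 ± 0.12 (SE, 95% interval −0.44 to 0.14, edgeR adjusted p = 0.59). Of the windows of 50 bases along the longest coding transcript of Acta2, 0.352% also occur in transcripts of other genes, among them the cytoplasmic actin Actg1, and none of Actg2 do. No source used here says how reads from such stretches were assigned.

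The myosin chains and their kinase gave the same picture of low KO replicates 1 and 3 in the heavy chain, with less movement in the light chain. Myh11 (chr16:14194535-14291372, minus strand) encodes the smooth muscle heavy chain, the motor of the thick filament. It measured 12656, 14719 and 14194 CPM over the WT libraries and 10348, 14321 and 11407 CPM over the KO libraries. KO replicate 2 lay between WT replicates 2 and 3, and the other KO libraries lay below all WT libraries. It had a log2 fold change of −0.20 ± 0.16 (SE, 95% interval −0.57 to 0.16, edgeR adjusted p = 0.552). Myl9 (chr2:156775420-156781658, plus strand) encodes the regulatory light chain that the kinase phosphorylates. It measured 5892, 6216 and 5788 CPM over the WT libraries and 5462, 6480 and 5801 CPM over the KO libraries, so the KO libraries spanned the WT range on either side. Myl9 had a log2 fold change of −0.012 ± 0.11 (SE, 95% interval −0.27 to 0.24, edgeR adjusted p = 0.968), the value closest to 0 of the 10. Mylk (chr16:34745210-35002420, plus strand) encodes the kinase, and from an internal start also telokin, a short protein of smooth muscle. It measured 2023, 2143 and 2194 CPM over the WT libraries and 1973, 2153 and 1669 CPM over the KO libraries. KO replicate 3 was the lowest and KO replicate 2 lay within the WT range. Mylk had a log2 fold change of −0.13 ± 0.11 (SE, 95% interval −0.39 to 0.13, edgeR adjusted p = 0.587).

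**Figure D2:**
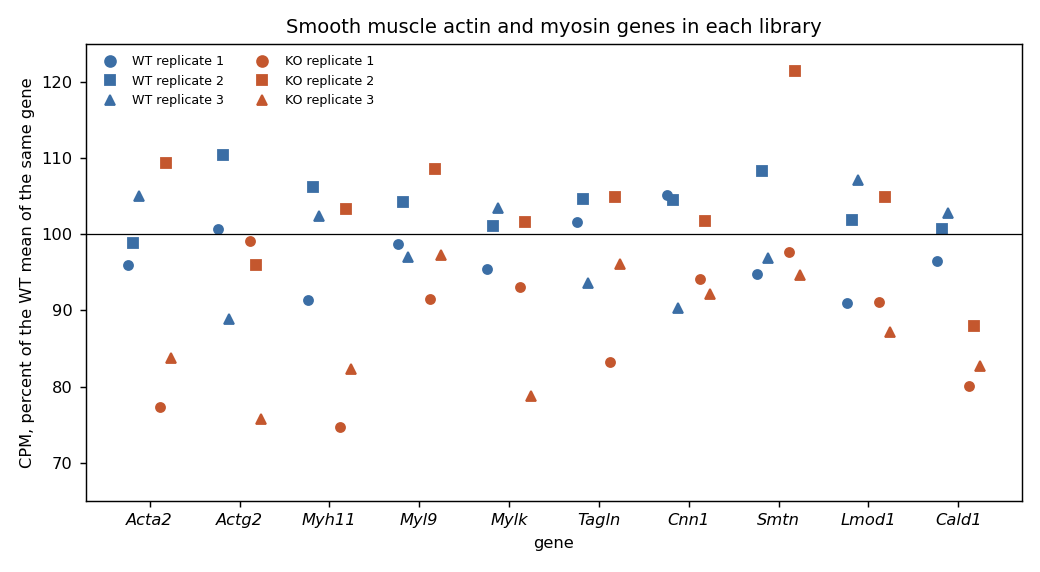
CPM of each gene in each library as a percent of the WT mean of that gene (vertical axis); blue points are WT and orange points KO, and the shape gives the replicate number. For Cald1 all 3 KO points lie below all WT points, and for the other 9 genes the groups overlap.

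Among the 10 members, Cald1 had the lowest log2 fold change. Cald1 (ENSMUSG00000029761.16, chr6:34598500-34775473, plus strand) encodes caldesmon, an actin-binding inhibitor of the myosin motor with a long form in smooth muscle and a short form in most other cells. It measured 2483, 2589 and 2643 CPM over the WT libraries and 2058, 2264 and 2127 CPM over the KO libraries. Every KO library lay below every WT library, and KO replicate 2, in which other members were high, was the highest of the 3. The means were 2572 ± 81.5 CPM in WT and 2150 ± 105 CPM in KO (SD, n = 3 each), with a log2 fold change of −0.26 ± 0.086 (SE, 95% interval −0.46 to −0.058, edgeR adjusted p = 0.279). In DESeq2 the adjusted p was 0.0323, and over the other edgeR and limma-voom settings tried the adjusted p lay between 0.249 and 0.793, with log2 fold changes from −0.30 to −0.21. The annotation lists 18 transcripts of Cald1, of which 10 are coding, and gene-level counts do not separate the long from the short form.

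Other quantities were read beside Cald1. Mitochondrial shares also separated the genotypes. With mitochondrially encoded and hemoglobin genes left out before normalization, Cald1 had a log2 fold change of −0.26, as with them. Summed CPM of 12 adventitial fibroblast markers, a cell type that makes the short form, ranged from 7274 to 8888 in WT and from 6627 to 8148 in KO, and no marker of that list was at 0. The genotypes overlapped in that sum, and its markers differed in direction: 8 of 12 were above 0 (median log2 fold change 0.075), among them Ly6a (0.86) and Pi16 (0.61), while the collagens Col1a1 (−0.35) and Col3a1 (−0.26) were below 0. None of them passed the edgeR test. Whether they had a part in the Cald1 values was not tested.

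The calponin family members Tagln and Cnn1 overlapped between genotypes. Tagln (chr9:45929619-45936058, minus strand) encodes transgelin (SM22 alpha), an actin-bundling protein. It measured 10269, 10576 and 9460 CPM over the WT libraries and 8405, 10594 and 9703 CPM over the KO libraries, with KO replicate 1 lowest and KO replicate 2 highest. Tagln had a log2 fold change of −0.078 ± 0.13 (SE, 95% interval −0.38 to 0.23, edgeR adjusted p = 0.8). Its exons overlap those of Pcsk7 and Gm48529 on the opposite strand, and no source used here gives the strand setting of the counting. Cnn1 (chr9:22099216-22109630, plus strand) encodes calponin, the other inhibitor of the motor on the actin filament. It measured 2039, 2027 and 1753 CPM over the WT libraries and 1826, 1975 and 1787 CPM over the KO libraries, and was the 1 member whose lowest library was a WT library. It had a log2 fold change of −0.058 ± 0.097 (SE, 95% interval −0.28 to 0.17, edgeR adjusted p = 0.799).

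Smoothelin and leiomodin, which bind and build actin filaments in differentiated muscle, had values on either side of 0, and both intervals held 0. Smtn (chr11:3517523-3540612, minus strand) encodes smoothelin, a marker of contractile smooth muscle. It measured 1631, 1863 and 1666 CPM over the WT libraries and 1681, 2089 and 1629 CPM over the KO libraries, and KO replicate 2 was the highest library. With a log2 fold change of 0.065 ± 0.12 (SE, 95% interval −0.21 to 0.34, edgeR adjusted p = 0.821), it was the 1 member with a value above 0. Lmod1 (chr1:135324807-135368065, plus strand) encodes leiomodin, which nucleates actin filaments. It measured 979, 1095 and 1152 CPM over the WT libraries and 980, 1128 and 937 CPM over the KO libraries. KO replicate 3 was lowest, and WT replicate 1 and KO replicate 1 lay within 2 CPM of each other. Lmod1 had a log2 fold change of −0.083 ± 0.10 (SE, 95% interval −0.32 to 0.16, edgeR adjusted p = 0.729).

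Spread within genotype differed between the groups. For 9 of 10 members the SD of log2 CPM was larger over the KO libraries than over the WT libraries, the exception being Cnn1; with 3 libraries each, this was not tested. For Acta2 it was 0.066 in WT and 0.262 in KO, and for Cald1 it was 0.046 and 0.070. KO replicate 3 lay below all WT libraries for 7 members and KO replicate 1 for 6 members, against 1 member, Cald1, in KO replicate 2. For 4 members (Acta2, Myl9, Tagln and Smtn), KO replicate 2 was the highest of all 6 libraries. Mean member deviations from WT in log2 CPM were −0.19, 0.054 and −0.20 in KO replicates 1, 2 and 3. The same counts over all rows are not given here. A spread particular to these genes therefore cannot be told from a wider spread of the KO libraries in general. The mitochondrial share of counts also spread more in KO (SD 4.53 percentage points) than in WT (1.70).

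Levels within a library can be compared between genes only per length, here as counts per kilobase of union exon length, given as a percent of Acta2 in the same library. In WT, Myl9 stood at 51.8% ± 3.58 of Acta2 and Tagln at 51.4% ± 4.95, which did not differ beyond their spread (SD, n = 3 for each value here). The heavy chain Myh11 followed at 18.4% ± 1.20, Cnn1 at 7.17% ± 0.900 and Smtn at 3.96% ± 0.347. The 4 lowest were Lmod1 at 2.74% ± 0.122, the second actin Actg2 at 2.36% ± 0.331, Cald1 at 2.15% ± 0.0440 and the kinase gene Mylk at 1.90% ± 0.0368. Actg2 overlapped its neighbours Lmod1 and Cald1 in that order. The order depended on the length used for genes with many transcripts. Per kilobase of the longest coding transcript, the mean of Cald1 (5.03% ± 0.103) was above that of Smtn (4.75% ± 0.416), with overlapping libraries. Tagln (59.3% ± 5.72) then stood above Myl9 (49.5% ± 3.41).

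In KO the order of the means by union exon length was the same as in WT. Myl9 stood at 57.6% ± 5.40 of Acta2, Tagln at 54.3% ± 4.86, Myh11 at 17.7% ± 0.346, Cnn1 at 7.74% ± 1.03, Smtn at 4.62% ± 0.332 and Lmod1 at 2.91% ± 0.305. Actg2 (2.40% ± 0.533), Cald1 (2.03% ± 0.262) and Mylk (1.94% ± 0.296) overlapped each other. Of the summed length-scaled signal of the 10 genes, Acta2 made up 41.4% ± 1.85 in WT and 39.9% ± 2.004 in KO, and Cald1 0.891% ± 0.0215 and 0.805% ± 0.0674.

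**Figure D3:**
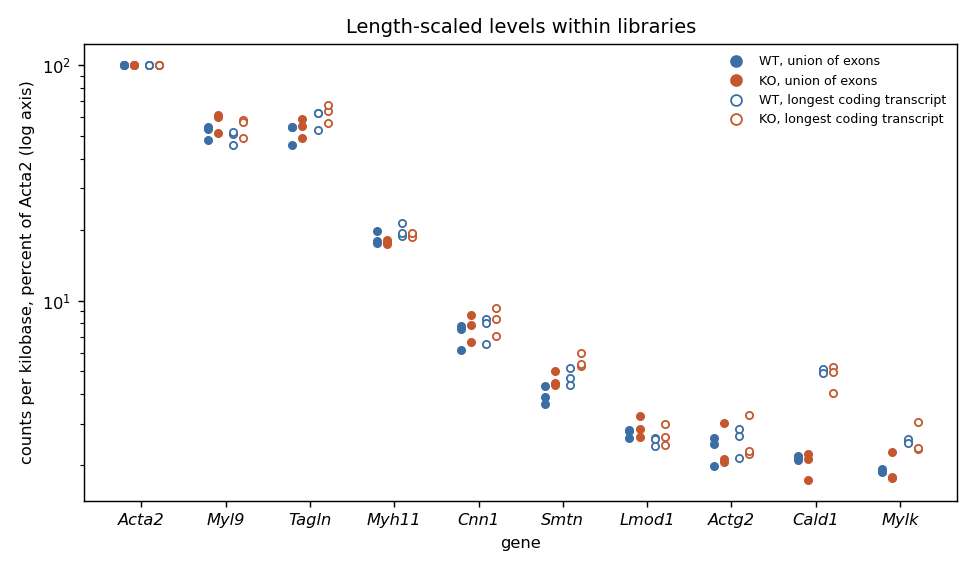
Counts per kilobase of each gene as a percent of Acta2 in the same library (log axis); filled points use the union of exons and open points the longest coding transcript, blue for WT and orange for KO. Myl9 and Tagln sit near one another below Acta2, and the place of Cald1 shifts with the length used.

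Ratios of counts between 2 members of 1 library cancel library size and normalization, and 10 such ratios were compared. The thin over thick filament ratio, Acta2 over Myh11, had log2 values of 0.73, 0.55 and 0.69 over the WT libraries and of 0.70, 0.73 and 0.68 over the KO libraries. The groups overlapped, and the difference was 0.050 ± 0.056 (SE, exact permutation p = 0.6). Each gene by itself spread 1.42-fold between its highest and lowest library, whereas their ratio spread 1.14-fold. Myl9 over Myh11, light over heavy chain, was 0.20 ± 0.088 higher in KO, with values of −1.10, −1.24 and −1.29 in WT and −0.92, −1.14 and −0.98 in KO that overlapped (p = 0.2, exact permutation). Mylk over Myl9, the kinase gene over the gene of its substrate, differed by −0.13 ± 0.107 (p = 0.4, exact permutation). Counts per gene do not separate the kinase from telokin in Mylk.

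Of the ratios to Acta2, that of Smtn separated the genotypes. Its log2 values were −3.68, −3.53 and −3.78 over the WT libraries and −3.32, −3.51 and −3.49 over the KO libraries, and every KO value was above every WT value, with KO replicate 2 and WT replicate 2 nearly equal. The difference was 0.22 ± 0.093 (exact permutation p = 0.1, adjusted p = 0.5 over the 10 ratios). Cald1 over Cnn1, the pair of inhibitors, was lower in KO: 0.28, 0.35 and 0.59 in WT and 0.17, 0.20 and 0.25 in KO, a difference of −0.20 ± 0.096 (exact permutation p = 0.1, adjusted p = 0.5). For these 2 of 10 ratios the libraries did not overlap. Over all tested rows, the ratio to Acta2 did not overlap for 9.26% (8.2% higher and 1.06% lower in KO), and the ratio to Cnn1 for 14.7% (2.98% lower in KO). The smallest p that 3 against 3 libraries allow is 0.1, so no ratio could pass.

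The remaining 5 ratios to Acta2 overlapped between genotypes, with exact permutation p between 0.4 and 1. Tagln over Acta2 differed by 0.082 ± 0.112, Cnn1 by 0.11 ± 0.157 and Lmod1 by 0.081 ± 0.094. Actg2 over Acta2 differed by 0.013 ± 0.214 and had its highest value in KO replicate 1 (−5.55, against −5.75 to −6.15 in the other libraries). Cald1 over Acta2 differed by −0.094 ± 0.113. It lay between −3.11 and −3.06 in WT, at −3.03 and −3.10 in KO replicates 1 and 3, and at −3.40 in KO replicate 2. The lower Cald1 levels of KO replicates 1 and 3 thus went with lower Acta2, and that of KO replicate 2 did not.

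**Figure D4:**
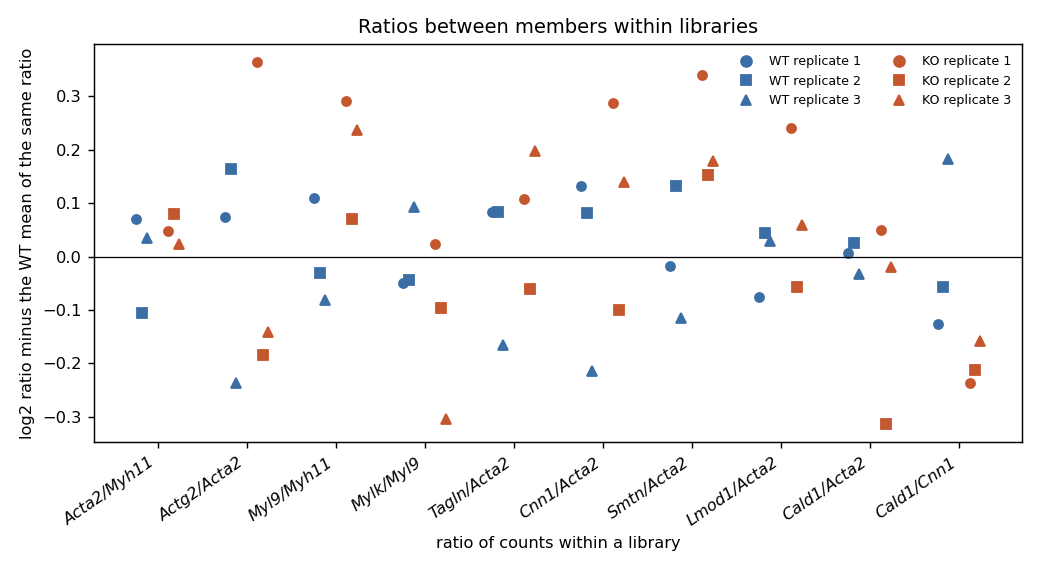
Log2 ratio of 2 genes in each library minus the WT mean of that ratio (vertical axis) for the 10 ratios compared; blue points are WT, orange points KO and the shape gives the replicate number. Smtn/Acta2 lies higher and Cald1/Cnn1 lower in all 3 KO libraries, with the other ratios overlapping.

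Among all 45 pairs of members, the ratio was steadiest for Myl9 and Tagln (SD of log2 ratio over 6 libraries 0.062), followed by Acta2 and Myh11 (0.067) and by Mylk and Lmod1 (0.075). The median over the 45 pairs was 0.136. Actg2 had the least steady ratios, up to 0.234 with Acta2. By comparison, the SD of the level itself was 0.193 for Acta2, 0.205 for Myh11, 0.086 for Myl9 and 0.127 for Tagln. Libraries of the genotypes did not overlap in 7 of the 45 ratios, no larger a share than the 16.8% of the ratios of any tested row to any member. These SDs run over both genotypes and describe 6 libraries, with no test.

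**Figure D5:**
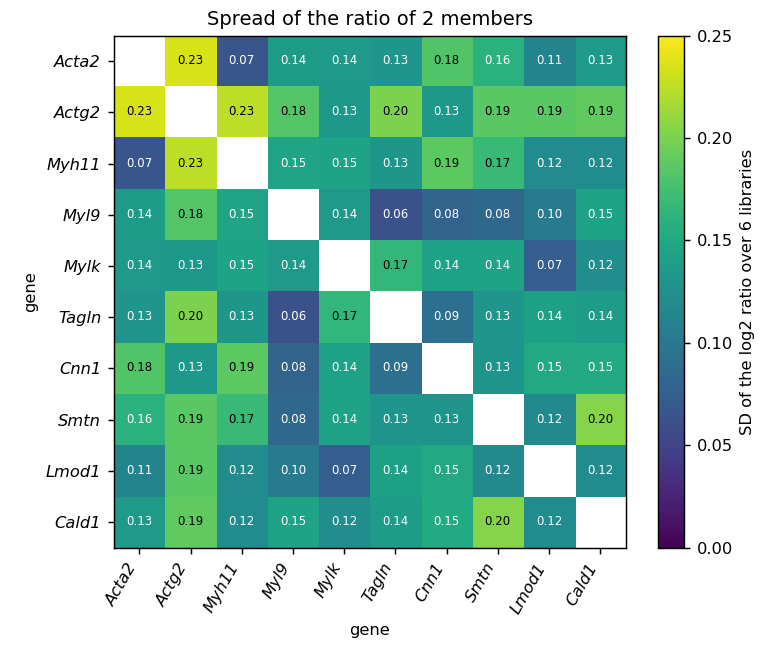
SD over 6 libraries of the log2 ratio of each pair of the 10 genes (colour and number). Dark cells mark steady ratios, such as Acta2 with Myh11 and Myl9 with Tagln, and the row of Actg2 is the lightest.

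RNAs of the proteins that anchor the filaments to the membrane and to each other were mostly lower in KO in value, without passing the test. Of 16 tested anchoring and thin filament partners, 14 were below 0 with a median log2 fold change of −0.28, and 7 did not overlap between genotypes, all lower in KO (11.3% of all rows did so). Because the list was chosen with earlier results of these data known, these counts are descriptions only. edgeR called 0 of them. Vinculin, Vcl, which links actin to adhesion sites, measured 1157 ± 36.8 CPM in WT and 883 ± 93.8 CPM in KO (SD, n = 3 each; log2 −0.39 ± 0.095, edgeR adjusted p = 0.263). The adhesion protein Pgm5 had −0.36 ± 0.104 (edgeR adjusted p = 0.27). DESeq2 called Vcl and the integrin subunit Itga8 (adjusted p = 0.0112 and 0.0169). The tropomyosins Tpm1 (−0.073 ± 0.099) and Tpm2 (−0.0096 ± 0.127), which lie along the same filament as caldesmon, had values close to 0.

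Genes that control contraction gave a median of −0.037 over 21 tested, with 16 below 0 and 0 called by edgeR. Ppp1cb, the catalytic subunit of myosin phosphatase, measured 843 ± 30.4 and 672 ± 53.2 CPM in WT and KO (SD, n = 3 each; log2 −0.33 ± 0.084, edgeR adjusted p = 0.264). Arhgef1, an exchange factor that activates RhoA, measured 99.99 ± 5.49 and 139 ± 19.4 CPM (0.48 ± 0.103, edgeR adjusted p = 0.239). Arhgef12, another exchange factor of RhoA, had −0.22 ± 0.079. DESeq2 called Ppp1cb and Arhgef1 (adjusted p = 0.0198 and 0.0112).

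Myocardin and serum response factor, with 12 further regulators of these genes, had a median of −0.19 over 14 tested, with 11 below 0 and 0 called by edgeR. Libraries did not overlap for 8 of them, all lower in KO, beside 11.3% of all rows. The list was chosen with earlier results of these data known, so this count describes it and is no test. Myocd measured 115 ± 11.4 and 87.1 ± 17.9 CPM in WT and KO (SD, n = 3 each; log2 −0.40 ± 0.152, edgeR adjusted p = 0.303) and Srf 128 ± 7.46 and 111 ± 7.43 CPM (−0.20 ± 0.074, edgeR adjusted p = 0.293). The TEAD factor Tead1 had −0.27 ± 0.066, its coactivator Wwtr1 −0.24 ± 0.070 and Gata6 −0.21 ± 0.070.

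Counterparts of the members in other cells were measured in the same libraries. Of 13 nonmuscle genes tested, 8 were below 0, with a median of −0.054 and 0 called by edgeR. The cytoplasmic actin Actb measured 2834 ± 135 and 2504 ± 115 CPM in WT and KO (SD, n = 3 each; log2 −0.18 ± 0.090, edgeR adjusted p = 0.388), the nonmuscle heavy chain Myh10 had −0.42 ± 0.191, and the actin-binding Lima1 had 0.38 ± 0.123. Of 12 striated muscle genes tested, 9 were above 0 with a median of 0.53 and 0 called, at low levels: the atrial light chain Myl4 measured 6.60 ± 0.201 and 11.7 ± 5.54 CPM (SD, n = 3 each) and the heart heavy chain Myh6 0.806 ± 0.713 and 5.62 ± 6.83 CPM. Smtnl2, a smoothelin relative, measured 0.888 ± 0.151 and 1.68 ± 0.640 CPM. The other 8 striated genes did not pass the filter on low counts.

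Outside these lists, the genes whose log2 CPM over the 6 libraries was most like the mean profile of the 10 members were Glo1 (Pearson r = 0.993), Pdzd11 (0.987), Rrp12 (0.984), Ints14 (0.983) and Mettl14 (0.983), out of 8624 candidates. The members themselves had r between 0.602 (Actg2) and 0.941 (Myh11) with that mean. These are descriptions over 6 libraries that share their normalization and include both genotypes, and with so many candidates high values are found in any such search.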

How the data were processed

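RNA of purified aortic medial smooth muscle cells was measured in 3 Mymsl WT and 3 Mymsl KO libraries. The values are raw counts of reads per gene as deposited. Per the submitters' processing notes, the authors used Trimmomatic (0.36), STAR (2.6.0c), featureCounts from Subread (1.6.1) and the build GRCm38. Annotation release, strand setting and handling of multiply mapped reads: not given in the sources used here. Totals ran from 20048216 to 25521123. Columns were matched to libraries by the names in the labels. Members and lists were chosen with earlier results of these data known.

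All rows were fitted with edgeR 4.0.16 in R 4.3.3 (TMM, filterByExpr with minimum count 10 and minimum total count 15, quasi-likelihood test on genotype, two-sided, Benjamini-Hochberg over 14145 rows, threshold 0.05). Each SE is the log2 fold change over the root of F. Ratios and shares were compared by exact two-sided permutation tests over libraries (scipy 1.17.1). Lengths and coordinates came from GENCODE M21. DESeq2 1.42.0 and limma-voom (limma 3.58.1) were alternatives. The tests were checked on simulated counts. Named genes were the 10 members, Myocd and Srf, the 3 genes of smallest p in each related list, and the 5 most like profiles (a gene that this rule took is not reported here); Tpm1, Tpm2 and Itga8 were added after their values were seen. Alternatives also covered DESeq2 size factors, library totals, other filters, leaving out mitochondrial and hemoglobin genes, a replicate block and leaving out libraries.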

Additional observations from a re-analysis of the deposited data

How the results depend on the processing

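No member was called by edgeR under any setting tried, and DESeq2 called 1 (Cald1). Over all rows, the number called was 1 in the main analysis, 192 with DESeq2, 9 with no filter, 0 with the replicate number as a block, 0 without KO replicate 1 and WT replicate 3 together, and between 0 and 3 when single libraries were left out. The replicate block called 0 members and left 9 of 10 below 0. Deviations from the group means of same-numbered libraries had correlations of 0.107, 0.134 and −0.0556, and the series text, which speaks of pairs of mice, does not tie the numbers to those pairs; the main analysis was therefore unpaired. Members below 0 numbered between 7 and 10 when single libraries were left out, and their median then lay between −0.18 (without KO replicate 2) and −0.038 (without KO replicate 3). Of 150 alternative values of member fold changes, 6 changed sign, all in members close to 0: over left-out libraries Myl9 ran from −0.0818 to 0.0416 (0.0206 without KO replicate 1 and WT replicate 3), Tagln from −0.157 to 0.0065 and Smtn from −0.0542 to 0.132. Acta2 ran from −0.31 (without KO replicate 2) to −0.050 (without KO replicate 1), Myh11 from −0.35 to −0.11 and Cald1 from −0.30 to −0.23 without the same libraries. Of 70 alternative ratio values, 5 changed sign: over left-out libraries Acta2/Myh11 ran from −0.00252 to 0.0852, Actg2/Acta2 from −0.163 to 0.112, Tagln/Acta2 from −0.00109 to 0.153 and Cald1/Acta2 from −0.166 to 0.0155. Smtn/Acta2 ran from 0.166 to 0.290, Cald1/Cnn1 from −0.266 to −0.112, Myl9/Myh11 from 0.154 to 0.265, Mylk/Myl9 from −0.201 (without KO replicate 1) to −0.0365 (without KO replicate 3), Cnn1/Acta2 from 0.00127 (without WT replicate 3) to 0.214 (without KO replicate 2) and Lmod1/Acta2 from 0.00147 (without KO replicate 1) to 0.150 (without KO replicate 2). The difference in the share of counts ran from −1.14 (without KO replicate 2) to −0.282 percentage points (without KO replicate 1). With the length of the longest coding transcript, Myh11 stood at 19.8% of Acta2 in WT and 19.1% in KO, because other lengths divide the same counts; over left-out libraries it lay between 17.7% and 18.8% in WT and between 17.6% and 17.9% in KO. With 3 libraries a group, the 95% intervals of 9 members held 0. Each member had at least 6351 counts in every library.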

Other observations

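Smtn and Cald1 stood at opposite ends of the members in KO relative to WT, an observation made after their values were seen. Because they are the highest and the lowest member, their ratio necessarily had the largest difference of the 45 pairs, which adds nothing to their separate values. The log2 ratio of Smtn to Cald1 was 0.32 higher in KO, and every KO library lay above every WT library. Libraries did not overlap for 7 of the 45 pairs. All 7 held Smtn or Cald1: 4 ratios with Smtn and 4 with Cald1, counting their own ratio under each. Over the ratios of any tested row to any member, 16.8% did not overlap, and 7 of 45 is not above that share. Cald1 encodes an inhibitor of the myosin motor and Smtn a structural protein of the actin filament, and counts per gene do not tell which of their isoforms the ratio reflects.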
